A study of Mus musculus with 6 samples.

Results

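Integrin subunits were examined in RVP3 cells, a mouse tumour line of C57BL/6 background, with and without epigenetic treatment. The genes were 10 named subunits, Itga2, Itga3, Itga5, Itga6, Itga7, Itgav, Itgb1, Itgb3, Itgb5 and Itgb7, and each probe annotated with 1 of these symbols was taken. Of the 10 genes, 7 were measured, through 10 of the 16760 probes tested. Only probes detected on at least 2 arrays of a group were annotated, so all 10 had to pass the filter on low signals. Itga2, Itga6 and Itgb3 had no probe of their name among the annotated probes and were not analysed here. The readout was total RNA on 6 bead arrays (Illumina Mouse WG-6). Control cells were left untreated (3 arrays) and the other cells were given DAC/TSA (3 arrays), and the series describes the 3 samples of a group as biological replicates. All cells first grew for 24 h in fresh medium. Treated cells then received 3 µM DAC (5-aza-2′-deoxycytidine, an inhibitor of DNA methyltransferases) for 48 h and 30 ng/ml TSA (trichostatin A, an inhibitor of histone deacetylases) for 24 h. The agents were given in sequence to the same cells, so their separate effects cannot be told apart, and all values come from a single cell line. The labels call the cells tumour cells and name no tissue. Of 6 listed mesenchyme markers only Vim was measured, and of 6 listed epithelial markers Krt8 and Krt18 (simple epithelium) and Krt14 (basal epithelium). These were detected on all 6 arrays, as were the brightest probes of the endothelial markers Egfl7 and Esam, but not that of Kdr. No cell type was read from these markers.

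Integrins are receptors for the extracellular matrix and for other cells, each built from an alpha and a beta chain that cross the membrane together. The pairing decides the ligand. Alpha 3, alpha 6 and alpha 7 with beta 1, and alpha 6 with beta 4, bind laminins of the basement membrane. Alpha 1 and alpha 2 with beta 1 bind collagens, and alpha 5 with beta 1 is the classical fibronectin receptor. Alpha v joins several beta chains, among them beta 1, beta 3 and beta 5, to bind the RGD motif of fibronectin and vitronectin, whereas beta 7 pairs with alpha 4 or alpha E on leukocytes. Inside the cell the tails of the chains are tied to actin by talin, kindlin and other adaptors, so that adhesion and signalling are linked. In tumour cells the set of integrins is known to bear on attachment, migration and spread.

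DAC acts at cytosines followed by guanine (CG), so the sequence at the gene starts is shown for the alpha chains and the beta chain whose signals changed most clearly in opposite directions and that had a window in the sequence table. The windows come from RefSeq (mouse GRCm38.p6, 250 bases before to 50 bases after an annotated start), are written 5′ to 3′ on the strand of the gene, and carry each CG in capitals. Itga3 has 2 annotated starts. The window at chr11:95076665-95076964 (minus strand) holds 24 CG, a number reached by 20.0% of the 32851 windows in the table, and the other, at chr11:95069149-95069448, holds 5. The Itga5 window at chr15:103366742-103367041 (minus strand) holds 13 CG and the Itgb7 window at chr15:102231886-102232185 (minus strand) holds 5, against a median of 7 over all windows.
Itga3 start: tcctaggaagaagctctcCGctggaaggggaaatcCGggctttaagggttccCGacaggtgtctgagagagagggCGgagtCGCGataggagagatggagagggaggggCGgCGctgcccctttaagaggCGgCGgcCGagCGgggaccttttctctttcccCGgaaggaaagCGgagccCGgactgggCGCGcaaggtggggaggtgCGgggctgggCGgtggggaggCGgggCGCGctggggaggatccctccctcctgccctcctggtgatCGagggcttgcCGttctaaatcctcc
Itga5 start: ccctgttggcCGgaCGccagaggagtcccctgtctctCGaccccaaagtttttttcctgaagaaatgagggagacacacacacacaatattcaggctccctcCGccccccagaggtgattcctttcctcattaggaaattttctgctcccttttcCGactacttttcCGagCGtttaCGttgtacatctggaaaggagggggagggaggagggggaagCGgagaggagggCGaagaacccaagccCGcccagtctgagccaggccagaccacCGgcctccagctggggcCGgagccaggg
Itgb7 start: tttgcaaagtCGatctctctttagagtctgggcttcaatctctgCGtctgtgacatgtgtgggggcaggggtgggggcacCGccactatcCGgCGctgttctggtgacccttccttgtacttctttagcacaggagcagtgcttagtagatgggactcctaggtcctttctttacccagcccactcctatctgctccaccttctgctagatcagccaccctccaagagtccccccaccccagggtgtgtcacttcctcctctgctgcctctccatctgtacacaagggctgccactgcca
The windows of Itgav, Itgb5 and Itgb1 hold 24, 20 and 27 CG, and Itga7 had no window in the table. Both strands were searched for GGGCGG, the core of the Sp1 motif, which occurs 3 times in the printed Itga3 window, 2 times in that of Itga5 and not in that of Itgb7, and in 35.7% of all windows. TATAAA, the core of the TATA box, was found in none of the members' windows and in 13.6% of all. DNA methylation was not measured on these arrays, so the sequences are given as a description only.

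DAC/TSA treatment changed the measured integrin chains in both directions. Signals are log2 values after quantile normalisation, a change is DAC/TSA minus control with its standard error (SE), and a call is an adjusted p of 0.01 or less in limma with Benjamini-Hochberg adjustment over all probes. By the brightest probe of each gene, 3 of 7 chains were raised (Itga3, Itga7 and Itgb5), where 27.0% of all 8734 measured genes were raised. Itga5 and Itgb7 were lowered, where 25.8% of all genes were, and Itgav and Itgb1 did not pass. The median change of the 7 chains was 0.40, the value of the brighter Itgav probe, or 0.22 with probes of a gene averaged, against -0.02 over all genes. By probe, 3 of the 10 were raised, 4 were lowered and 3 did not pass, where 22.4% and 23.4% of all probes were raised and lowered, or 45.8% in either direction. With 52.8% of all genes called in 1 direction or the other, the number of called chains says little in itself, and the description turns on which chains moved and how far. In bulk RNA, more cells that express a gene and more RNA per cell cannot be told apart.

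**Figure D1:**
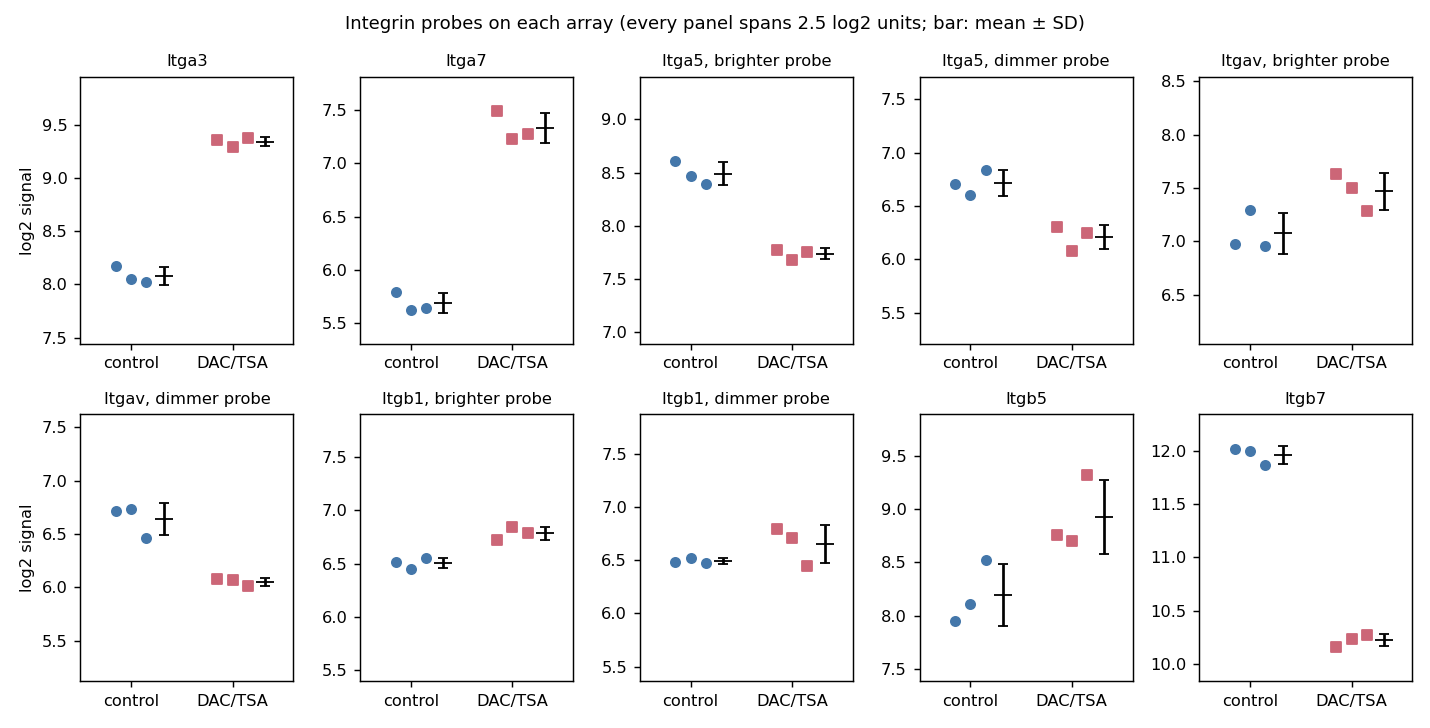
Log2 signal of each of the 10 integrin probes on the 3 control arrays (circles) and the 3 DAC/TSA arrays (squares), in replicate order, with the mean ± SD of each group beside them. All panels span 2.5 log2 units, so distances can be compared between panels but levels cannot. The groups overlap for the brighter Itgav probe and the dimmer Itgb1 probe and lie apart for the other 8. Over all genes the arrays of 69.2% lay apart. The brighter and dimmer probes of Itgav moved in opposite directions.

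Both measured alpha chains of laminin receptors among the named genes, Itga3 and Itga7, rose. Itga3, the alpha chain of the laminin-332 and laminin-511 receptor alpha 3 beta 1, read 8.17, 8.05 and 8.02 on the control arrays and 9.35, 9.29 and 9.37 on the DAC/TSA arrays. All treated arrays lay more than 1 log2 unit above all controls, and the arrays within a group differed little. The change was 1.26 ± 0.09 (SE, n = 3 per group), a 2.39-fold increase (limma adjusted p = 1.62e-07). It was the 341st largest rise among the 8734 genes, of which 7.06% were raised at least 2-fold and passed.

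Itga7 forms the laminin receptor alpha 7 beta 1, best known from skeletal and cardiac muscle. Its probe read 5.79, 5.63 and 5.64 in control cells and 7.49, 7.23 and 7.27 after DAC/TSA. It was detected on none of the control arrays and on all 3 treated arrays, so the control level is only a bound and the gene went from not well above background to a clear signal. The fitted change was 1.64 ± 0.10 (SE, n = 3 per group, limma adjusted p = 4.66e-08), and the rise was at least 2.92-fold. The fold is taken against, per array, the higher of the lowest detected signal and the signal of the probe itself. Itga7 passed the filter only through the treated arrays, so its call was favoured by the filter. In the annotation Itga7 overlaps Mettl7b, which changed by 0.14 (limma adjusted p = 0.222). Of 6 listed muscle markers 3 were measured, with Des raised (fitted 0.79) and Tnnc1 (-1.01) and Acta1 (fitted -0.56) lowered. Des was detected on no control array and passed the filter only through the treated arrays, and Acta1 was detected on no treated array. The summed signal of the 3 was 232 to 282 units on control arrays and 199 to 208 on treated arrays. The part of a change in cell type in the rise of Itga7 was not tested. Both measured alpha chains of laminin receptors were thus raised, with a median change of 1.45, or 1.40 with Itga7 at its bound. Only Itga3 was detected in control cells, so this median is a description and no support for a rise of the class.

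Itgb4, the beta chain that joins alpha 6 in the laminin receptor of hemidesmosomes, was outside the named genes but belongs to the same ligand. Its brighter probe read 5.90, 6.18 and 6.19 in control cells and 8.34, 8.20 and 8.14 after treatment. The fitted change of 2.13 ± 0.10 (4.39-fold, limma adjusted p = 8.73e-09) was larger than that of any of the 7 measured chains. The dimmer probe was detected only on treated arrays, with a fitted change of 1.16 and a rise of at least 1.76-fold. Its partner Itga6 was not analysed here. Hemidesmosomes belong to basal epithelium, and of 6 listed epithelial markers 3 were measured. The basal keratin Krt14 rose by 2.47, whereas Krt8 and Krt18 did not pass, and the summed signal of the 3 overlapped between groups (2227 to 2952 units against 2445 to 3071). Epcam, Cdh1 and Krt5 were not analysed here, and the part of a change in cell type in the rise of Itgb4 was not tested.

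The chains of fibronectin and other RGD receptors did not move together. Itga5, the alpha chain of the fibronectin receptor, fell. Its brighter probe read 8.61, 8.47 and 8.40 in control cells and 7.78, 7.68 and 7.76 after DAC/TSA, with no overlap between the groups. The change was -0.75 ± 0.09 (SE, n = 3 per group, limma adjusted p = 1.63e-05), 1.69-fold lower. Its dimmer probe showed the same direction, with 6.71, 6.60 and 6.84 against 6.30, 6.08 and 6.24 and a change of -0.51 ± 0.10 (limma adjusted p = 0.000695). With arrays scaled to their medians in place of quantiles the dimmer probe no longer passed (-0.44, limma adjusted p = 0.0902).

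Itgb5, the beta chain of the vitronectin receptor alpha v beta 5, rose. It read 7.95, 8.11 and 8.52 in control cells and 8.75, 8.71 and 9.32 after treatment. Replicate 3 was the highest in both groups, and the highest control array lay just below the lowest treated one. The change was 0.73 ± 0.17 (SE, n = 3 per group), 1.66-fold, with a limma adjusted p of 0.00263. The call depended on single arrays and on the scaling. It was lost without control replicate 1 (0.61, adjusted p = 0.0159), without control replicate 2 (0.69, adjusted p = 0.0118) and with median scaling (0.76, adjusted p = 0.102), but was kept without replicate 3 of both groups (adjusted p = 3.26e-05) and with the replicate number as a block (adjusted p = 5.56e-07).

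Itgav, the alpha chain that Itgb5 needs as its partner, gave no single direction. Its brighter probe, annotated to the RefSeq transcript, read 6.97, 7.30 and 6.95 in control cells and 7.63, 7.50 and 7.28 after treatment. Control replicate 2 lay above DAC/TSA replicate 3, so the groups overlapped. The change of 0.40 ± 0.12 (95% interval 0.14 to 0.65) did not pass (limma adjusted p = 0.0121). It did pass with the replicate number as a block (adjusted p = 0.000906), without control replicate 2 (0.51, adjusted p = 0.00385) and without DAC/TSA replicate 3 (0.49, adjusted p = 0.00198). The dimmer probe, annotated from a cDNA clone, went the other way, reading 6.72, 6.73 and 6.46 in control cells and 6.08, 6.07 and 6.01 after treatment. Its change was -0.58 ± 0.10 (limma adjusted p = 0.000218), 1.50-fold lower. Which transcripts each probe detects was not tested, and no direction can be given for Itgav as a gene.

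**Figure D2:**
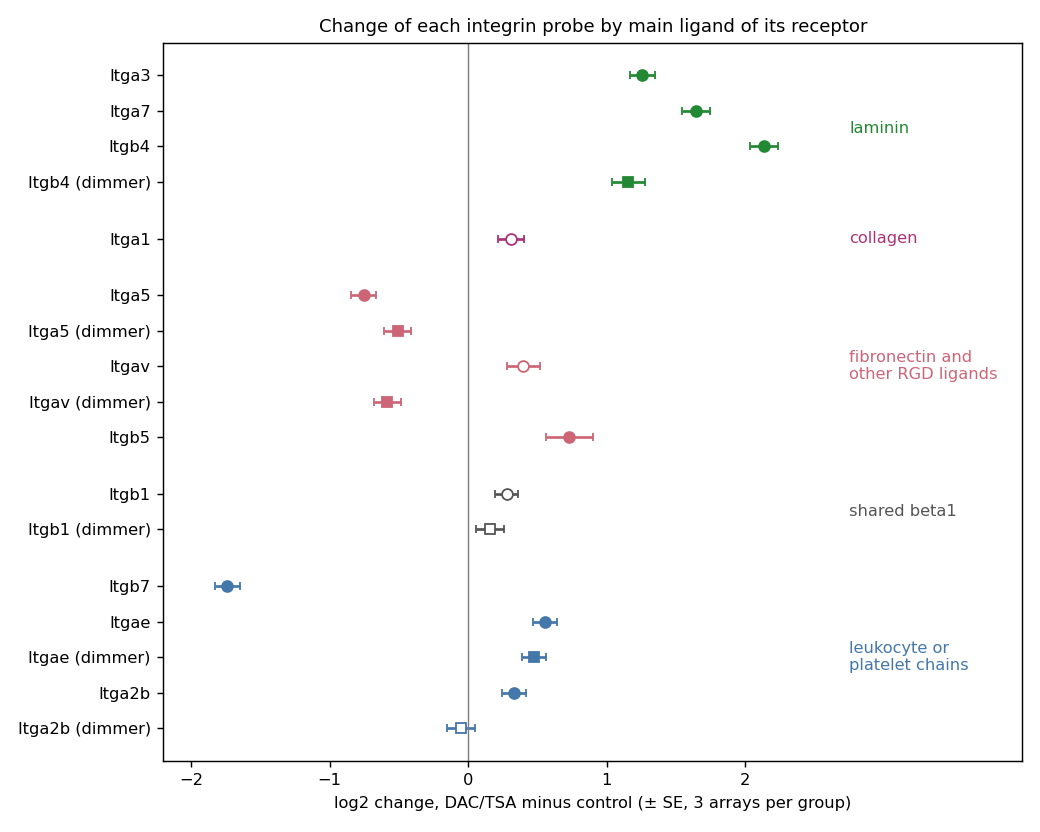
Log2 change (DAC/TSA minus control, ± SE, 3 arrays per group) of each probe of the measured integrin chains, members and others, grouped by the main ligand of the receptor. Filled symbols passed an adjusted p of 0.01 and open ones did not, and squares are the dimmer probes of a gene. The chains grouped under laminin lie at 1.16 to 2.13, Itgb7 lies at -1.74, and the fibronectin and RGD chains lie on both sides of 0.

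No alpha chain of a collagen receptor among the named genes was measured, since Itga2 had no annotated probe. The remaining collagen receptor alpha chain with an annotated probe was Itga1. It read 5.52, 5.45 and 5.37 in control cells, where it was detected on no array, and 5.68, 5.87 and 5.72 after treatment, where 2 of 3 arrays detected it. The change of 0.31 ± 0.09 did not pass (limma adjusted p = 0.0117), and both groups lay at the edge of detection. A comparison of collagen with laminin and fibronectin receptors therefore rests on a single dim alpha chain.

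Itgb1, the beta chain that the laminin, collagen and fibronectin receptors share, did not pass the test. Its brighter probe read 6.52, 6.45 and 6.55 in control cells and 6.72, 6.85 and 6.79 after DAC/TSA. All treated arrays were above all controls, as the arrays of 69.2% of all genes lay apart in 1 direction or the other. The change was 0.28 ± 0.08 (95% interval 0.09 to 0.46), below the threshold for a call (limma adjusted p = 0.0142), though it passed with the replicate number as a block (adjusted p = 0.00421). The dimmer probe read 6.48, 6.53 and 6.47 in control cells and 6.79, 6.71 and 6.45 after treatment. With DAC/TSA replicate 3 below every control array, its change of 0.16 ± 0.10 (95% interval -0.06 to 0.38) did not pass (limma adjusted p = 0.205).

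Whether the alpha chains moved relative to their shared partner was examined by the difference of log2 signals on each array. Levels of different probes cannot be compared, so only the change of the difference is given. The Itgb1 probe was dim, at the 30th percentile of mean signal among genes. Its own change was 0.28 in the main fit and 0.37 with neqc, a background correction. The shifts against Itgb1 thus largely follow the changes of the alpha chains themselves. Of 8 planned pairs, 5 were measured. Itga3 relative to Itgb1 rose by 0.98, from -0.10 to 0.08 around the control mean on control arrays to 0.87 to 1.06 on treated arrays. Itga7 relative to Itgb1 rose by 1.37, with treated arrays at 1.21 to 1.59, or by at least 1.27 with the undetected control level of Itga7 at its bound. Itga5 relative to Itgb1 fell by 1.03, with treated arrays at -1.15 to -0.93. These 3 pairs separated the groups completely, each with a two-sided exact permutation p of 0.1, the smallest that 3 against 3 arrays can give, so that no pair can reach a threshold of 0.05. The pair Itgav and Itgb1 changed by 0.12 and the pair Itgav and Itgb5 by -0.33, each with overlapping groups and an exact permutation p of 0.5. Within replicate numbers, the difference of Itgav to Itgb5 was lower after treatment in all 3 (-0.14, -0.39 and -0.47), with an exact paired permutation p of 0.25, the smallest that 3 pairs can give. The groups separated in 3 of the 5 pairs, where the arrays of 69.2% of all single genes lay apart, so the count says little in itself. Adjustment over the 5 could only raise these p-values. Itga7 passed the filter only through the treated arrays, which favoured a separation of its pair.

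The alpha chains of laminin and fibronectin receptors were also set against each other, a comparison added after the values were seen and given as a description. Itga3 relative to Itga5 read -0.03, -0.01 and 0.04 around the control mean on the control arrays and 1.99, 2.02 and 2.03 on the treated arrays. The mean shift of 2.01 is a 4.03-fold change of the ratio of the 2 signals, and the arrays of each group lay close together. Itga7 relative to Itga5 shifted by 2.40, or by at least 2.30 with Itga7 at its bound. With probes of a gene averaged, the shift of Itga3 relative to Itga5 was 1.89. After DAC/TSA the signals of the laminin receptor alpha chains Itga3 and Itga7 were thus higher and that of the fibronectin receptor alpha chain Itga5 lower, and the change of Itgb1 did not pass.

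**Figure D3:**
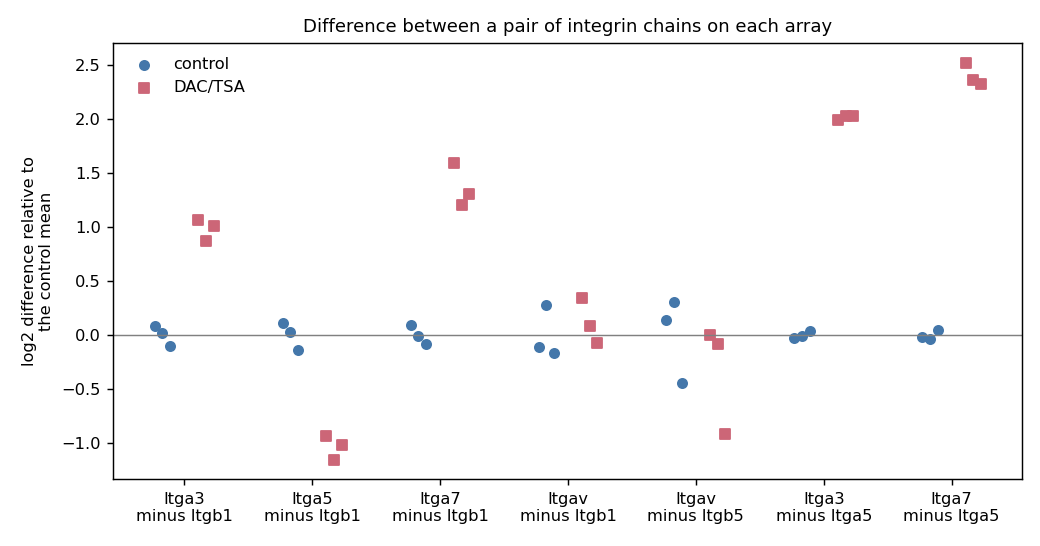
Difference of log2 signals between a pair of integrin chains on each array, relative to the mean of the control arrays, for the 5 measured alpha and beta pairs and the 2 pairs added later. Itga3 and Itga7 relative to Itgb1 lie above 0.8 on every treated array, Itga5 relative to Itgb1 lies below -0.9, and both pairs with Itgav overlap between groups.

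Itgb7 fell most. This beta chain joins alpha 4 in the gut homing receptor of lymphocytes and alpha E in the receptor for E-cadherin. Its signal was 12.02, 12.00 and 11.87 in control cells and 10.16, 10.23 and 10.28 after DAC/TSA. Before normalisation the intensities were 3680, 3601 and 3980 units against 1140, 1155 and 1452 units, so the probe stayed far above background in both groups. The change was -1.74 ± 0.09 (SE, n = 3 per group), 3.34-fold lower (limma adjusted p = 1.20e-08). It was the 34th largest fall among the 8734 genes, and only 3.82% of all genes fell at least 2-fold and passed. With any of the 6 arrays left out the change lay between -1.79 and -1.71.

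Of the alpha partners of beta 7, only Itgae was measured. Itgae, the alpha E chain, was detected on no control array and on all 3 treated arrays, with signals of 5.37, 5.38 and 5.43 against 6.00, 5.89 and 5.96. The fitted change was 0.55 ± 0.08 (limma adjusted p = 0.000113), and the rise was at least 1.12-fold, for a probe that passed the filter only through the treated arrays. The dimmer Itgae probe was also detected only on treated arrays, with a fitted change of 0.48 and a rise of at least 1.04-fold. Itga4, the other partner, was not analysed here. Vcam1, a ligand of alpha 4 beta 7 on endothelium, rose by 0.52 ± 0.10 (limma adjusted p = 0.000501). Since beta 7 is a leukocyte chain, markers of leukocytes were looked at beside it. Of 10 listed, 6 were measured, and 4 of these (Laptm5, Cd52 and the close copies Lyz1 and Lyz2) were detected on no control array. These 4 passed the filter only through the treated arrays. Of the other 2, Cd79b was lowered (-0.48, detected on all control arrays and no treated one) and Coro1a changed by -0.27, which did not pass. The summed signal of all 6 was 277 to 308 units on control arrays and 493 to 498 on treated arrays. On control arrays this sum included the background signal of the 4 undetected markers. The largest change of the 6 was that of Lyz1 (fitted 2.10). Ptprc and Spi1, also on this list, had no annotated probe. The part of other cells in the Itgb7 signal was not tested.

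Of 17 further integrin subunits, 4 were measured, namely Itgb4, Itgae, Itga1 and Itga2b, and 3 of them were raised (against 27.0% of all genes). With median scaling 2 were raised, against 1335 of all 8734 genes. Itga2b, the platelet alpha IIb chain, changed by 0.33 (limma adjusted p = 0.00562), but its dimmer probe changed by -0.05 and the call was lost in 5 of 6 fits that left out an array. Itgb7 was the only beta chain among the measured integrin genes to be lowered, and Itga5 the only alpha chain by its brightest probe. A subunit silent in both groups could not be measured, and 1 silent in control cells was measured only if treated arrays detected it. The counts of raised subunits are therefore a description.

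Among the ligands of these receptors more genes were raised than lowered. Of 38 listed, 21 were measured, 14 were raised (against 27.0% of all genes) and 1 was lowered (against 25.8%), with a median change of 0.54. With median scaling 10 were raised, against 1335 of all 8734 genes. Of the 14, 3 were detected on no control array and so passed the filter only through the treated arrays. Among the collagens, 5 of 6 measured were raised (against 27.0% of all genes), with a median of 0.82 and the largest change in Col6a1 (1.90, 3.73-fold). Fibronectin (Fn1), the ligand of alpha 5 beta 1, read 8.96, 9.08 and 9.08 in control cells and 11.28, 11.37 and 11.28 after treatment. By this brighter probe Fn1 thus rose 4.80-fold (2.26 ± 0.09, limma adjusted p = 1.25e-09) while the transcript of its receptor chain Itga5 fell 1.69-fold. The dimmer Fn1 probe was detected only on treated arrays, with a fitted change of 0.74 and a rise of at least 1.37-fold. Of 10 measured genes listed with fibronectin and RGD ligands 7 were raised (against 27.0% of all genes), including connective tissue growth factor (Ccn2, 1.85). Ccn1, a matricellular ligand of alpha v integrins, was lowered (-0.74). This list was drawn up by receptor class, and an RGD motif was not checked in each gene. Edil3, an RGD ligand of alpha v integrins, was detected only on treated arrays (0.61, at least 1.10-fold).

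Of the laminin chains themselves, 4 were measured and Lamb3 was raised. Lama5, Lamb2 and Lamc1 did not pass, with changes of 0.26, -0.03 and -0.17. Lamb3, a chain of laminin-332, went from no detection on control arrays (5.16, 5.44 and 5.21) to 7.52, 7.29 and 7.50, at least 3.13-fold higher (limma adjusted p = 8.35e-09). The difference in share between laminins and their receptor chains was not tested.

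Of proteins that sit beside integrins in the membrane, all 15 listed were measured. By the fit, 9 were raised (60.0%, against 27.0% of all genes) and 6 did not pass, with a median of 0.59. With median scaling of the arrays 3 were raised, against 1335 of all 8734 genes. Cd47, the integrin-associated protein, rose by 1.48 ± 0.09. Cd151, the tetraspanin that binds the laminin receptors alpha 3 beta 1 and alpha 6 beta 4, rose by 0.94 ± 0.09 (1.92-fold, limma adjusted p = 1.46e-06), alongside Itga3 and Itgb4. Cd44, a hyaluronan receptor, rose by 0.87. Caveolin 1 (Cav1) rose by 0.84 ± 0.17, a call that was lost with median scaling (adjusted p = 0.067).

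The cytoplasmic adaptors of adhesions moved both ways. Of 52 listed, 35 were measured, 7 were raised, 10 were lowered and 18 did not pass, with a median change of -0.10. Lowered genes included Dab2, an endocytic adaptor that binds beta tails (-1.33 ± 0.08, 2.52-fold lower), zyxin (Zyx, -0.90), migfilin (Fblim1, -0.87) and filamin A (Flna, -0.87), which link adhesions to actin. Raised genes included Itgb3bp, named for binding the beta 3 tail and also a centromere protein (1.67), the integrin-linked kinase Ilk (0.99 ± 0.09, limma adjusted p = 9.50e-07), Cib1 (0.89) and talin 2 (Tln2, 0.80). Neither direction of this list exceeded the share over all genes by much, with 20.0% raised and 28.6% lowered against 27.0% and 25.8%.

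**Figure D4:**
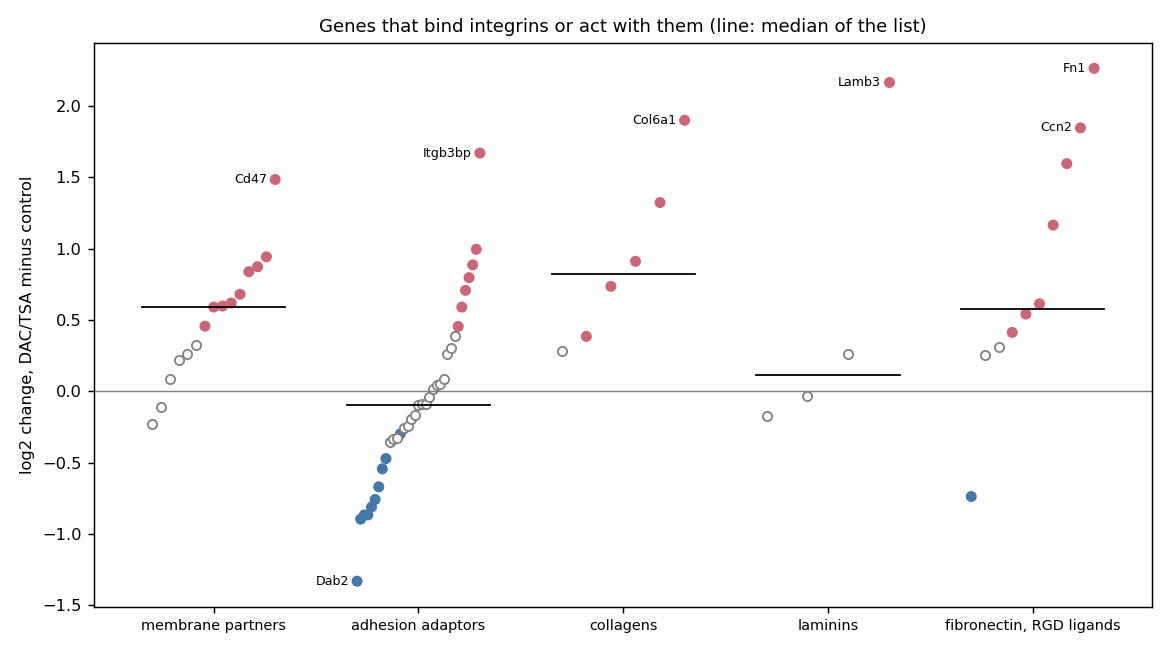
Log2 change (DAC/TSA minus control) of each measured gene of the lists of membrane partners, adhesion adaptors, collagens, laminins and fibronectin or other RGD ligands, by its brightest probe. Red points were raised, blue points lowered and open points did not pass, and the line marks the median of the list, at 0.59, -0.10, 0.82, 0.11 and 0.58.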

How the data were processed

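RNA from 3 control and 3 DAC/TSA cultures of RVP3 cells was hybridised to bead arrays, and groups and replicate numbers came from the labels. The authors deposited linear intensity values of 45281 probes, extracted with BeadStudio and given beside a detection p-value per array, and log2 values of 15131 of the probes. Quantile normalisation and log2 of the intensities matched the deposited log2 values to within 5e-14. Probes with a detection p-value of 0.01 or less on at least 1 array were kept (16760), as the methods state. Groups were compared by lmFit and eBayes of limma 3.58.1 (R 4.3.3), two-sided, with Benjamini-Hochberg adjustment over all 16760 probes and a threshold of 0.01. The test was checked on simulated data. Pairs of chains were compared by exact permutation over arrays.

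Median signals ranged from 40.0 to 45.9 units and mean signals from 233 to 296 (replicate 3 highest in each group), and 29.2% to 33.3% of probes were detected per array. The number of arrays limits the precision, p-values measure the spread between cultures of a single line, and no slide or scan was given to test as a batch.

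Probes were named through the annotation of the platform, which covers only the probes with deposited log2 values. These were detected on at least 2 arrays of a group, so a gene detected in neither group was not measured. The brightest probe stood for a gene. Every probe of the members was named, as were up to 4 called genes with the largest change per direction of each other list, and genes undetected in a group. The members and lists were chosen with earlier results of these data known.

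Deviations of same-numbered arrays from their group means correlated at 0.34, 0.24 and 0.65, all above 0.1, so the replicate number was also fitted as a block. The pairing is read from the data, as the labels state no shared day, and control 2 was closer to DAC/TSA 1 (0.37). Other alternatives were median scaling, neqc (a background correction with quantile scaling), filters, the deposited log2 values, thresholds, averaged probes and leaving out arrays.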

Additional observations from a re-analysis of the deposited data

How the results depend on the processing

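Itga3, Itga7, Itgb7 and the brighter Itga5 probe kept their direction and their call under every change of normalisation, filter, probe summary and block, and with any array left out; Itga5 alone missed a 2-fold minimum. The members' counts were 3 raised and 2 lowered. The count raised was 5 with the replicate number as a block, where Itgav and Itgb1 were added and 2837 of all genes were raised. It was also 5 at an adjusted p of 0.05. It was 2 with median scaling, where Itgb5 was lost, and ranged from 2 to 4 with an array left out, while the count lowered stayed at 2. A 2-fold minimum left 1 lowered member, and 617 raised and 334 lowered genes in all.

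Median scaling gave 1335 raised and 815 lowered genes in all, against 2358 and 2254, so the raised share of called genes was 62.1% in place of 51.1%. It left 6 adaptors and 0 ligands lowered, and 3 membrane partners, 10 ligands and 2 other subunits raised. The median change over all genes moved only from -0.02 to 0.02, and the cause was not tested. With the block the counts were 10 raised and 15 lowered adaptors, 17 raised and 1 lowered ligands, and 11 raised partners. The block also called more genes in all, with 2837 raised and 2864 lowered.

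With an array left out, adaptors gave 7 to 8 raised and 9 to 12 lowered, ligands 12 to 14 raised and 1 lowered, partners 7 to 9 raised and 0 to 1 lowered, other subunits 2 to 3 raised, and all genes 2011 to 2384 raised and 1845 to 2317 lowered. Leaving out replicate 3 of both groups, chosen after seeing the data, gave 1 lowered partner. The differences within replicate numbers, Itga7 at its bound in the pairs and the median over averaged probes were also chosen after seeing the data. Averaging probes turned Itgav to -0.094 (limma adjusted p = 0.432) and Itgav relative to Itgb1 to -0.31, because its probes moved in opposite directions, and gave -0.85 for Itga5 relative to Itgb1. Dim probes near the limit of detection, such as Itga1 and Itgae, can understate a fold.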
